A study of Arabidopsis thaliana with 16 samples.

Results

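The genes described here were the AP2/ERF genes of Arabidopsis other than the PLETHORA/AINTEGUMENTA-LIKE (PLT/AIL) genes themselves, looked at as possible binding targets of PLT3, PLT5 and PLT7. A gene was a member when the product of its coding sequence in the RefSeq annotation of TAIR10.1 was an integrase-type DNA-binding protein, an ethylene response factor or an ethylene responsive element binding factor, with 8 AP2/ERF genes left out by name together with the 8 PLT/AIL genes. This rule used no binding value and gave 84 members of 27444 nuclear protein-coding genes. Of 93 AP2/ERF loci in the subfamily lists used below, 50 were members and 43 were not taken by the product rule. RefSeq gave a gene name for 43 of the 84 members, and the other 41 are called by their locus, without a role. The 42 members that were both listed and named are placed in a subfamily below.

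AP2/ERF factors are plant transcription factors that share a DNA-binding domain. The AP2 and PLT/AIL proteins carry the domain in duplicate, whereas the ERF and DREB proteins carry it singly and read short GC-rich elements of ethylene-responsive and drought-responsive promoters. In meristems PLTs are known for maintaining stem cells and for positioning new organs, and several AP2/ERF genes act beside them in floral timing, floral organ identity and cytokinin or stress responses. PLTs recognise a longer element than the ERF and DREB proteins.

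Binding was measured by DNA affinity purification sequencing (DAP-seq), in which a tagged protein made in vitro is mixed with fragmented genomic DNA and the recovered fragments are sequenced. The DNA carries its methylation but no chromatin, so that a peak shows that a protein can bind a stretch of DNA, not that it does so in the plant. The baits were 3xFLAG-PLT3, 3xFLAG-PLT5, 3xFLAG-PLT7 and, as a control, 3xFLAG-GFP. Each was combined with Col-0 DNA from shoot apical meristems (SAMs) of seedlings after 9 days of growth or from inflorescence meristems (IMs) of plants of 4 to 8 weeks, with c. 500 meristems per replicate and 2 replicates per protein and tissue, 16 libraries in all. A PLT7 list held between 26660 and 32232 peaks, a PLT3 list between 23360 and 31065, a PLT5 list between 3934 and 10545 and a GFP list between 5090 and 10003. The value of a peak is its fold enrichment, the linear ratio of its height to the local background of the same library. Reads were not analysed here, so their number does not stand behind any interval given.

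For the calls, the replicates of a protein and tissue were combined to a dataset by the irreproducible discovery rate (IDR), and reproducible peaks that touched a GFP peak of the same tissue were removed. A member was bound when any part of such a peak fell between 1500 bp before and 500 bp after its gene start. On SAM DNA, PLT3 bound 20 of the 84 members and PLT7 bound 23, whereas PLT5 bound 0. On IM DNA, PLT3 bound 24 members, PLT5 bound 2 and PLT7 bound 30. Of all protein-coding genes, 29.1% (PLT3), 0.791% (PLT5) and 37.6% (PLT7) were bound on SAM DNA and 31.7%, 3.34% and 42.2% on IM DNA. The members' own shares, at 23.8%, 0% and 27.4% on SAM DNA and 28.6%, 2.38% and 35.7% on IM DNA, were below the share of all genes in every dataset. No test was made of this difference.

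**Figure D1:**
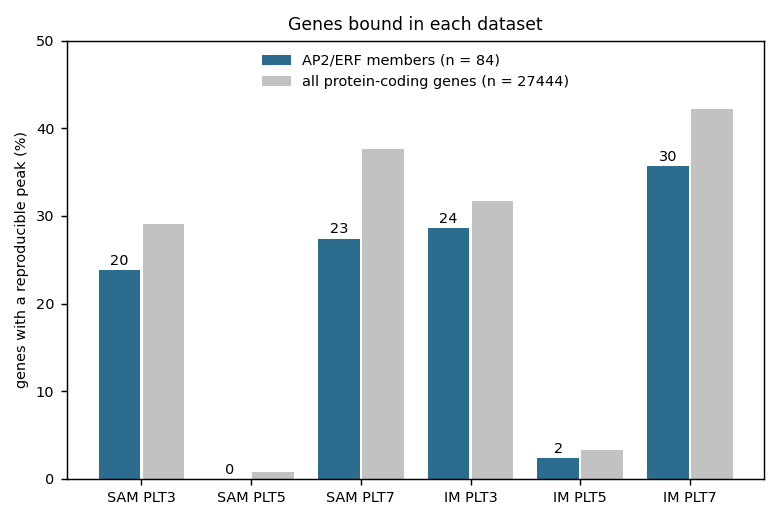
Percentage of genes with a reproducible, GFP-free peak between 1500 bp before and 500 bp after the gene start, for the 84 AP2/ERF members (blue, with their count) and for all 27444 nuclear protein-coding genes (grey), in each of the 6 datasets. The members' bar is the lower of the pair in all 6, from 0 members for PLT5 on SAM DNA to 30 for PLT7 on IM DNA.

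Over the 6 datasets, 34 members (40.5%) were bound at least once, beside 50.7% of all genes. Not one member was bound in all 6, beside 0.499% of all genes, and 14 members (16.7%) were bound in all 4 PLT3 and PLT7 datasets, beside 20.5%. Of the 43 listed AP2/ERF genes with other product names, 21 (48.8%) were bound at least once. The WRKY family had 34 of 72 genes bound, the NAC family 54 of 105 and the bHLH family 66 of 122. At the level of listed peaks, before replicates were compared, 58 members had a peak in at least 1 PLT library (69%, beside 72% of all genes) and 26 had none in any of the 12 (31%, beside 28%). A further condition, no GFP peak either, left 14 members (16.7%, beside 18.3%). In the SAM libraries (replicate 1, then 2), PLT3 had a listed peak at 45 and 30 members (53.6% and 35.7%, beside 53.4% and 40.4% of all genes). PLT5 had one at 8 and 2 (9.52% and 2.38%, beside 12.4% and 6.79%) and PLT7 at 38 and 32 (45.2% and 38.1%, beside 51.9% and 46.1%). Replicate 1 thus had the more members with a peak for each of the 3 proteins. In the IM libraries PLT3 had a listed peak at 42 and 35 members (50% and 41.7%, beside 52.1% and 51.5%). PLT5 had one at 18 and 15 (21.4% and 17.9%, beside 19.9% and 19.3%) and PLT7 at 39 and 38 (46.4% and 45.2%, beside 55.4% and 54.9%).

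The GFP control was not silent at these genes. It had a listed peak at 13 and 15 members on SAM DNA (15.5% and 17.9%, beside 12.7% and 13.4% of all genes). On IM DNA it had one at 26 and 14 members (31% and 16.7%, beside 23.3% and 16.8%). A GFP peak lay in the window of 44 members (52.4%), beside 39.2% of all genes, and 12 of the 26 members without a PLT peak had one. The windows themselves differed from those of other genes, with a median gap to the next gene upstream of 1819 bp, against 719 bp for all genes, and with 62 of 84 members (73.8%) having a single exon, against 21.5% of all genes. Single-exon genes at large were bound about as often as genes with introns, at 37.3% and 37.7% for PLT7 on SAM DNA and 41.7% and 42.3% on IM DNA. Among the members, PLT7 bound 27.4% of the single-exon genes and 27.3% of those with introns on SAM DNA, and 37.1% and 31.8% on IM DNA. PLT3 bound 22.6% and 27.3% on SAM DNA and 25.8% and 36.4% on IM DNA. The part of the gap or of the exon number in the counts was not tested. AT5G21960 was the only member with a peak in all 4 GFP libraries (beside 1.51% of all genes), at 4.25 and 4.93 on SAM DNA and 7.03 and 9.40 on IM DNA, and its PLT7 peak on IM DNA (2.52 and 2.68) lay elsewhere in the window.

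The reproducible peaks of the 34 bound members merged into 41 regions. Sequences are shown for those that held the full PLT-type element and for those with the highest enrichment. The element searched has 14 bases, of which 6 are fixed. Read 5′ to 3′ it is C, any base, C, any 3 bases, T, any 2 bases, C, any base, A, any base and G. It was searched on both strands within 50 bp of the summit. Only 5 regions held all 6 letters. These are shown first, each as 30 bases of the strand that carries the match, 5′ to 3′, with the fixed letters that were met in capitals. AT1G33760 lay at chr1:12236274-12236303 (plus strand), DREB19 at chr2:16070233-16070262 (minus), AT2G44940 at chr2:18537275-18537304 (plus), ESE1 at chr3:8287199-8287228 (plus) and AT4G32800 at chr4:15819230-15819259 (plus), all in RefSeq TAIR10.1. The element of DREB19 lay in its lesser region, with the summit at −1625 bp in a coding exon of AT2G38360, which was bound by PLT7 on IM DNA only.
AT1G33760: gataatttCaCcaaTccCaAtGgcaagctc
DREB19: aagaattaCtCgtaTttCaAgGttaattac
AT2G44940: agcttcttCtCtcaTaaCaAtGgcaagaca
ESE1: tcaattcaCaCacaTttCtAtGtgtttcgt
AT4G32800: agtccttgCaCacgTtaCaAtGtcttacac

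Of these 5, only the site of AT1G33760 also met a stricter form, with A as the second and C as the ninth base, 1 bp from the summit. The 5 members with the highest mean PLT7 enrichment did not hold the full element at their strongest region, and the best partial matches there are shown because these regions had the largest values. They lay at chr3:21331313-21331342 (AT3G57600), chr1:4391300-4391329 (AT1G12890), chr1:18172259-18172288 (CRF9), chr1:28142628-28142657 (ORA47) and chr3:5120080-5120109 (ERF4).
AT3G57600: cgacaaggtaCgaaatcCaAtGactgactt
AT1G12890: cttaagaatcCaaaTccCtAaGcttatgtc
CRF9: aacattttCaCattTccCcAttaacgagtt
ORA47: agtgcgtgCaCggtgcaCcAcGaatccacg
ERF4: catggaaaCgCggtTccCaAgccgcgcgtc

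AT3G57600 met 4 of the 6 letters there and the other four met 5. Sites were also formed by linking the summits of the 8 PLT3 and PLT7 libraries, without the IDR. At the 42 such sites in member windows that had a peak in both replicates of at least 1 dataset, the full element occurred in 4 (9.52%, 95% Wilson interval 3.77 to 22.1%), beside 10.5% of 33104 sites over the whole genome. In windows 500 bp away it occurred at 0 of the 42 (upper bound of the interval 8.38%) and at 1.81% of all sites. At least 5 of the 6 letters were met at 26 member sites (61.9%) and at 64.7% of all sites, and 500 bp away at 10 member sites (23.8%) and at 35.8% of all. The members' sites thus held the element about as often as sites at large, with an interval too wide to separate them. Over the whole windows, the element stood in 29 of 84 members (34.5%) and in 33.2% of all genes, and a match or its absence in a window says nothing of binding by itself.

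AT3G57600 and DREB26 were the members bound in most datasets, with 5 each, and the only ones bound by PLT5. AT3G57600 had separate regions. A position below 0 is the distance of a summit upstream of the gene start. At the more distant one, with its summit at −1441 bp and within a coding exon of AT3G57590, PLT7 reached 7.0 and 4.74 on SAM DNA and 8.52 and 8.18 on IM DNA, where replicate 1 gave the highest PLT7 value of any member. The PLT3 values were 4.08 and 2.97 on SAM DNA and 4.25 and 3.98 on IM DNA. Every PLT7 value thus exceeded every PLT3 value, and the IM libraries stood highest for PLT7. Library medians over sites with a peak in all 8 of these libraries were also higher for PLT7 (4.21 to 5.19) than for PLT3 (2.81 to 3.12).

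The other region of AT3G57600, at −814 bp and intergenic, was the one with a reproducible PLT5 peak, at 2.39 and 2.57 on IM DNA. Neither SAM library of PLT5 listed a peak there, while PLT3 and PLT7 had one in all 8 libraries. DREB26, named after the dehydration response element that its relatives bind, had its region at −701 bp in intergenic DNA. Its PLT7 values were 3.44 and 2.81 on SAM DNA and 3.70 and 3.50 on IM DNA, its PLT3 values 3.35 and 2.24 on SAM DNA and 2.62 and 2.26 on IM DNA, and PLT5 gave 1.72 and 1.69 on IM DNA. The PLT7 and PLT3 values of DREB26 overlapped in the SAM, and the PLT5 values were the lowest of the gene. When peaks were ranked by p-value for the IDR, 1 member instead of 2 was bound by PLT5 on IM DNA.

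AT1G12890 and AT4G32800 were the only members with a peak in all 12 PLT libraries, beside 3.8% of all genes. The region of AT1G12890 lay at −353 bp, in the 3′ UTR of AT1G12880, and it carried the highest SAM values for PLT7, at 8.13 and 6.73. On IM DNA PLT7 gave 6.94 and 6.93. PLT3 gave 4.48 and 3.61 on SAM DNA and 4.50 and 3.55 on IM DNA. The 4 PLT5 values, 2.1 and 2.1 on SAM DNA and 2.26 and 2.00 on IM DNA, did not pass the IDR, so that the gene counted as bound by PLT3 and PLT7 alone. The proteins therefore followed the same order in both tissues, PLT7 above PLT3 above PLT5, without overlap. The same order held for the medians of the libraries over all their listed peaks.

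AT4G32800 had its region at −238 bp, with PLT7 at 4.75 and 4.45 and PLT5, which did not pass the IDR, at 2.01 and 2.47 on SAM DNA. On IM DNA PLT7 was as high, at 4.85 and 4.31, and PLT5 gave 2.35 and 2.03, but both IM GFP libraries also listed a peak, at 4.69 and 6.16. The PLT3 and PLT7 peaks on IM DNA touched a GFP peak and were removed, the PLT5 peaks there did not pass the IDR, and the gene counted as bound by PLT3 and PLT7 on SAM DNA only.

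**Figure D2:**
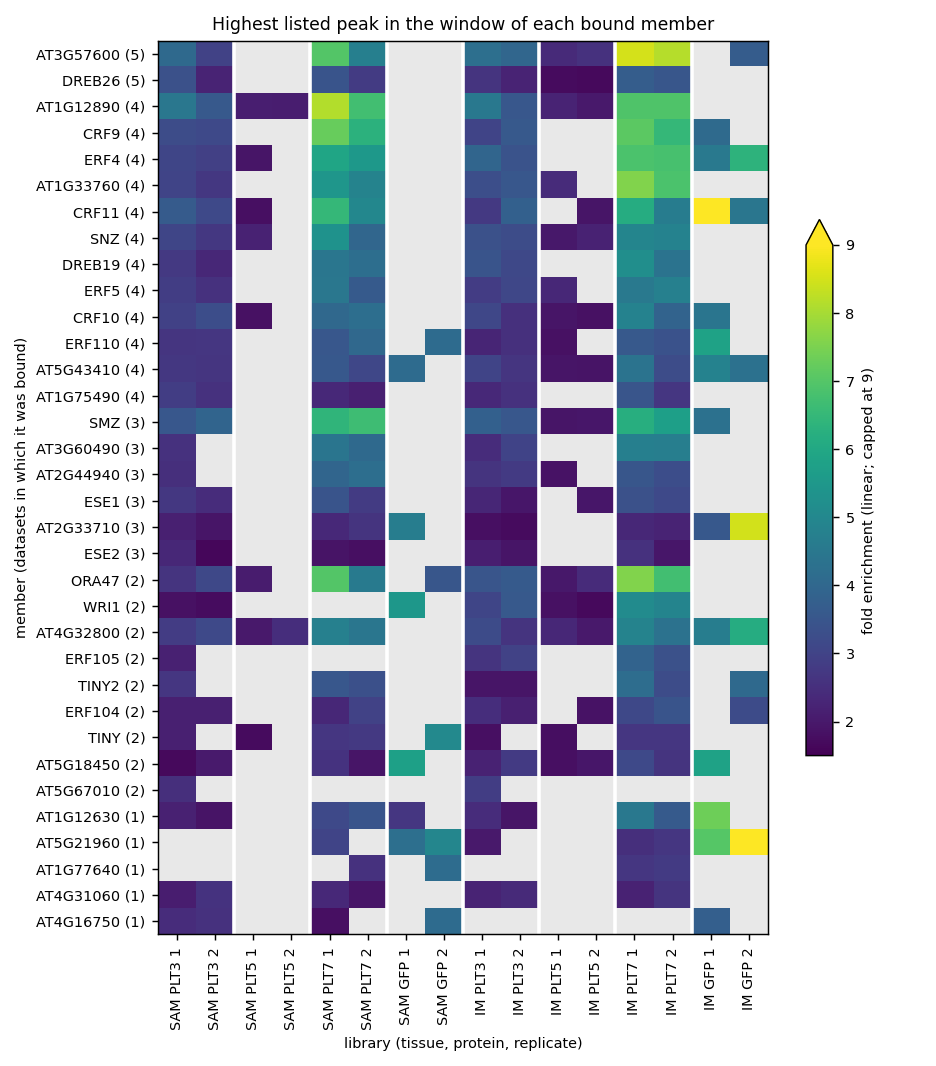
Fold enrichment (linear colour scale, capped at 9) of the highest listed peak in the window of each of the 34 bound members (rows, with the number of datasets in which each was bound) in each of the 16 libraries (columns). Grey cells had no listed peak. PLT7 columns are the brightest of the PLT columns, up to 8.52 at AT3G57600, PLT5 columns are mostly grey, and GFP peaks are scattered over different members.

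Where a bound region missed a PLT3 or PLT7 dataset, most often a peak was still listed there, whereas for PLT5 most regions were empty. The 41 regions and 4 PLT3 or PLT7 datasets gave 164 combinations. In 107 of them the member was bound, in 19 both replicates listed a peak that did not pass the IDR, in 17 a single replicate did, in 7 a reproducible peak touched a GFP peak, in 4 a reproducible peak ended outside the window, and in 10 neither replicate had a peak. A listed peak was present in all 8 PLT3 and PLT7 libraries at 28 regions of 26 members. For PLT5, 25 of 82 combinations had a peak in at least 1 replicate, and 2 passed. Fold enrichment over the regions had a median of 3.77 for PLT7 (range 1.81 to 8.52), 2.69 for PLT3 (1.64 to 4.5) and 2 for PLT5 (1.69 to 2.57).

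WRI1, which activates fatty acid synthesis in seeds, was bound on IM DNA only although all 8 PLT3 and PLT7 libraries listed a peak at the same site. It was called by a region in its own coding exon with the summit 665 bp downstream of the start. PLT7 gave 5.13 and 4.88 on IM DNA, but the same site had PLT7 peaks of 4.89 and 4.27 on SAM DNA. The PLT3 values were 3.06 and 3.60 on IM DNA and 2.92 and 2.44 on SAM DNA. The SAM peaks were narrower and ended short of the window, and the highest SAM value of PLT7 exceeded the lower IM value. AT5G67010 likewise had reproducible PLT7 peaks that ended outside the window. When a peak on the same region counted inside or outside the window, 16 instead of 14 members were bound in all 4 PLT3 and PLT7 datasets. The summits of 8 of the 41 regions lay outside the window, and with the summit required inside it 30 instead of 34 members were bound at least once.

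ORA47, an activator of jasmonate synthesis genes, and SMZ, a floral repressor of the AP2 family, each lost the datasets of a tissue to the control. ORA47 was bound on IM DNA only, with its summit at −1195 bp in the 5′ UTR of AT1G74920. The PLT7 values were 7.58 and 6.73 on IM DNA and 7.0 and 4.58 on SAM DNA, where a peak of GFP replicate 2, at 3.52, touched the region. SMZ had an intergenic region at −1152 bp, with PLT7 at 6.40 and 6.67 on SAM DNA and at 6.19 and 5.74 on IM DNA. There a peak of IM GFP replicate 1, at 4.30, touched it, and SMZ was kept as bound by PLT7 on IM DNA through a smaller region in its own coding exon 409 bp downstream. With GFP-touching peaks kept, 18 members were bound in all 4 PLT3 and PLT7 datasets and 35 in at least 1 dataset.

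A few members differed between libraries where neither the window edge nor a GFP peak was involved. AT4G16750 had a region at −375 bp with a peak in both PLT3 libraries on SAM DNA, at 2.44 and 2.56, and in none of the other 10 PLT libraries. ERF105 had a region at −1268 bp with PLT7 peaks on IM DNA, at 3.89 and 3.35, and PLT3 peaks there, at 2.62 and 2.97, whereas on SAM DNA only PLT3 replicate 1 listed one, at 2.2. WRI4, a regulator of stem wax synthesis, had a listed PLT3 peak in its window in all 4 PLT3 libraries, at 1.96 and 1.80 on SAM DNA and 1.90 and 2.35 on IM DNA, and in no PLT7 library. None of its peaks passed the IDR. These 3 genes were chosen after their values were seen, and the difference between libraries was not tested.

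Within the AP2 family proper, 3 of 5 members were bound at least once, beside 50.7% of all genes. SNZ, like SMZ a repressor of flowering, was bound in all 4 PLT3 and PLT7 datasets by a region at −1575 bp, in a coding exon of AT2G39260. Its PLT7 values were 5.32 and 3.96 on SAM DNA and 4.92 and 4.82 on IM DNA, above the PLT3 values of 3.06 and 2.71 on SAM DNA and 3.36 and 3.23 on IM DNA. The summits of both SNZ regions lay outside the window, and with the summit required inside it SNZ was bound in 0 datasets. AP2, which specifies sepals and petals, was not bound. It had a single listed peak for PLT3 (SAM, 1.88) and for PLT7 (IM, 2.2), and a GFP peak of IM replicate 1, at 5.66, lay in its window too.

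**Figure D3:**
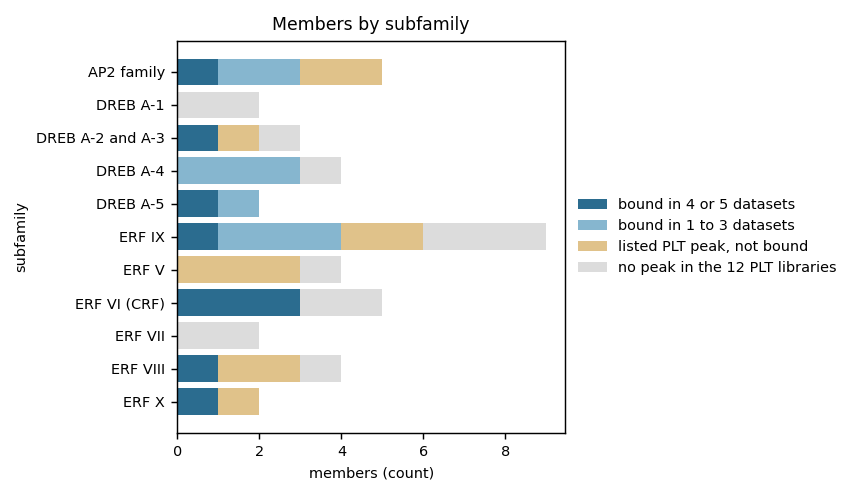
Number of members that were both on the fixed lists and named, by subfamily. They are split by the highest level of binding reached: bound in 4 or 5 datasets, bound in 1 to 3, a listed PLT peak without a call, or no peak in the 12 PLT libraries. Listed members without a name and listed genes that the product rule did not take are not counted. The cytokinin response factors have 3 members bound in 4 datasets and 2 without a PLT peak. Neither of the 2 members placed in ERF VII, HRE1 and HRE2, has a PLT peak. Of all genes, 20.5% were bound in all 4 PLT3 and PLT7 datasets and 28% had no PLT peak.

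The cytokinin response factors of ERF VI, named after the hormone that induces members of the group, fell at both ends of the range. CRF9, CRF10 and CRF11 were each bound in all 4 PLT3 and PLT7 datasets (beside 20.5% of all genes). CRF7 and CRF8 had no peak in any of the 12 PLT libraries (beside 28%). CRF9 was bound at −1153 bp, in the 3′ UTR of AT1G49110, with PLT7 at 7.26 and 6.32 on SAM DNA and 7.10 and 6.50 on IM DNA and PLT3 between 3.04 and 3.60. CRF10 was bound in its own intron 163 bp downstream, with PLT7 between 3.87 and 4.81 and PLT3 between 2.54 and 3.29. CRF11 was bound at −26 bp, with PLT7 between 4.64 and 6.48 and PLT3 between 2.73 and 3.79. A peak of IM GFP replicate 1, at 4.10, touched the edge of the CRF9 region but none of the PLT peaks on IM DNA. GFP peaks on IM DNA, at 10.6 and 4.44, lay elsewhere in the window of CRF11. In all 3 genes the lowest PLT7 value exceeded the highest PLT3 value, but the PLT7 libraries were higher as a whole. In the comparison relative to the typical site, given below, CRF9 passed and CRF10 and CRF11 did not.

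The DREB genes, which act mainly in drought, cold and salt responses, gave 6 members bound at least once of the 11 placed, to be read beside the 50.7% of all genes, as are the counts of the other subfamilies. Both members of A-5, DREB26 and ORA47, were bound, and so were ESE2, TINY and TINY2 of A-4. DREB19 of A-2 and A-3 was bound in 4 datasets by another region than the one with the element, at −145 bp and within an intron of AT2G38350, with PLT7 at 4.45 and 4.21 on SAM DNA and 5.21 and 4.35 on IM DNA. Its PLT3 values were 2.74 and 2.32 on SAM DNA and 3.45 and 3.12 on IM DNA. DDF1 and DDF2, which delay flowering when overexpressed, HRD, a drought-tolerance gene, and ABI4, which acts in abscisic acid signalling, had no PLT peak.

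Among the ERF genes, 4 of 9 members of ERF IX were bound at least once (beside 50.7% of all genes), those being ESE1, ERF5, ERF104 and ERF105. ERF5, a regulator of stress and defence responses, was bound in 4 datasets by an intergenic region at −881 bp, with PLT7 at 4.48 and 3.63 on SAM DNA and 4.54 and 4.76 on IM DNA and PLT3 between 2.56 and 3.09. ERF4, a repressor in ethylene and jasmonate signalling, was the only bound member of 4 in ERF VIII. It had PLT7 values of 5.92 and 5.50 on SAM DNA and 6.89 and 6.82 on IM DNA at an intergenic region at −1207 bp, and PLT3 values from 2.93 to 3.95. ERF3, a repressor of the same type, had no PLT peak. ERF110 of ERF X was bound in 4 datasets at −1292 bp, with PLT7 between 3.40 and 4.04 and PLT3 between 2.29 and 2.68. With a window from 1000 bp upstream to the start, ERF110, ORA47 and SNZ were bound in 0 datasets and AT1G33760 in 1.

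HRE1 and HRE2, which act in the response to low oxygen, were the only members placed in ERF VII. Neither had a PLT peak, and 28% of all genes had none. Subfamily counts leave out listed genes that the product rule did not take. The 4 members of ERF V, among them SHN1, SHN2 and SHN3, which promote wax and cutin synthesis, were not bound either. SHN3 had a PLT7 peak in a single library (2.64, IM replicate 1), SHN1 a PLT5 peak in a single library (2.03, IM replicate 1) and SHN2 none. Of the 42 members that were not placed in a subfamily, 16 were bound, 5 of them in 4 or more datasets.

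Some members lie next to each other in the genome, but the windows of no pair overlapped, so their calls are given side by side only. ESE1 was bound in 3 datasets and TDR1, named as a regulator of the defence response and 776 bp away with no gene between, had no PLT peak. ERF104 was bound in 2 datasets and AT5G61590, 832 bp away, had none. ERF5 and ERF2, 6924 bp apart with 1 gene between them, were bound in 4 datasets and without a peak, respectively. DREB2C, with listed PLT peaks in 4 libraries but no reproducible one, lay 939 bp from AT2G40350, which had no peak.

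Of the 41 summits, 29 lay upstream of the gene start and 12 at or downstream of it, in a window of which 1500 bp lie upstream and 500 bp downstream. The summits of 18 regions were intergenic. Another 12 lay in the member itself, with 6 in its 5′ UTR, 5 in a coding exon and 1 in an intron, and 11 lay in another gene, 7 of them in its coding exons. The peaks of 14 regions also overlapped the window of another protein-coding gene, so that the bound gene could not be told from the position. Over the 6 datasets, 24.7% of the 93 member summits inside the window lay downstream of the start, beside 34.2% of 35545 for all genes. The median position was −704 bp beside −407 bp. A region bound in several datasets was counted once in each, so these summits are not separate sites. The member share downstream was uneven, at 10.5% for PLT3 and 32% for PLT7 on SAM DNA (beside 33.4% each). On IM DNA it was 25% for PLT3 (beside 35.1%) and 29.6% for PLT7 (beside 34.7%). The last 250 bp of the window, from 250 to 500 bp downstream, held 4.3% of the member summits and 18.1% of those of all genes. The members also had a longer gap upstream and shorter genes (median length 1238 bp, against 2078 bp for all genes). The part of either in the summit positions was not tested.

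**Figure D4:**
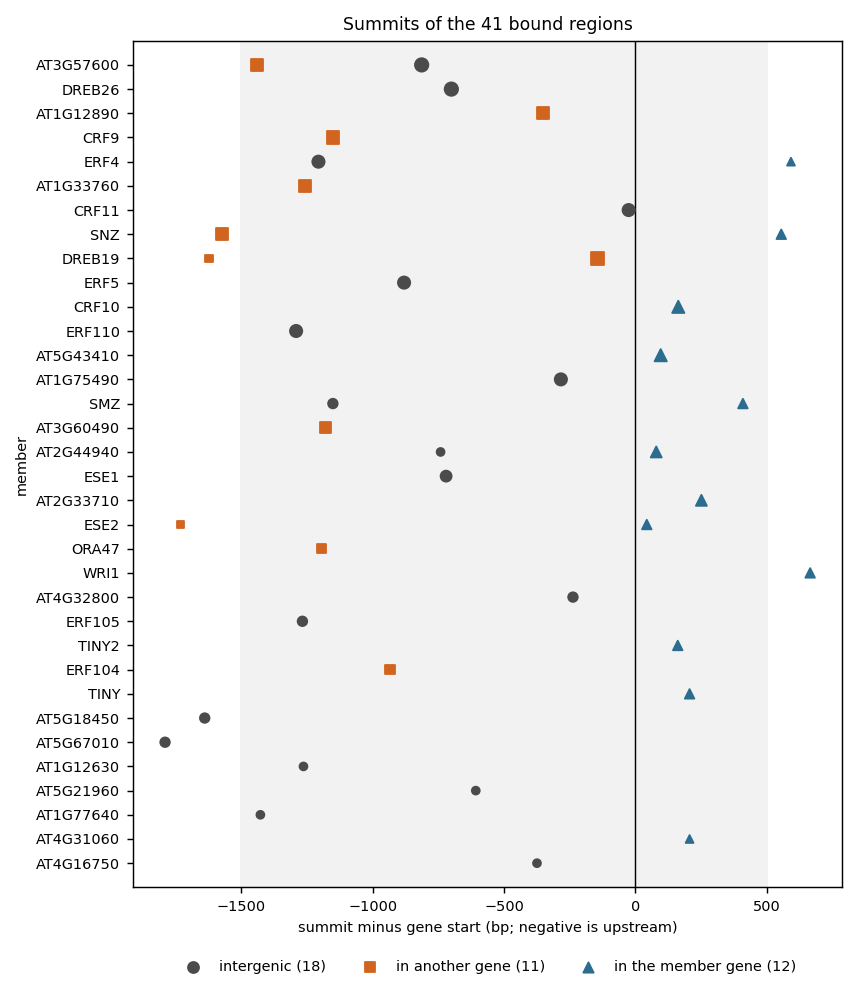
Summit of each of the 41 bound regions (points, sized by the number of datasets) relative to the gene start of its member in bp, with the window in grey, for intergenic summits (circles, 18), summits in another gene (squares, 11) and summits in the member itself (triangles, 12). Summits outside the grey area belong to 8 peaks that reach into the window with their flank.

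To compare levels between PLT7 and PLT3, sites with a peak in all 8 PLT3 and PLT7 libraries were tested, 12839 in the genome and 20 in member windows. A site is a cluster of listed summits linked at up to 150 bp, formed without the IDR and without removal of peaks that touched a GFP peak. The member sites thus include those of AT1G12630, AT4G32800, ORA47 and SMZ, where a reproducible peak touched a GFP peak. Fold enrichment was higher in each PLT7 library than in each PLT3 library, with library medians of 4.21 to 5.19 over these sites against 2.81 to 3.12 for PLT3, so each library was centred on its own median, and a difference is therefore relative to the typical site. In limma, 38.1% of all sites passed an adjusted p of 0.05, with 17.5% higher and 20.6% lower for PLT7. Of the 20 member sites, 4 were higher and 5 lower. Both counts are read against those shares of all sites. The 4 higher sites had uncentred PLT7 means of 6.18 to 6.80, and the 5 lower ones had means of 1.88 to 4.20. SMZ, at 6.25, and the site of AT3G57600 at −1441 bp, at 7.11, did not pass. Centring evens out the level of a library but not its spread, and the part of site strength in the differences was not tested.

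CRF9 was the member site most in favour of PLT7, at 0.41 ± 0.10 (log2 difference ± SE, limma adjusted p = 0.00195), and all 4 centred PLT7 values lay above all 4 PLT3 values. Its uncentred PLT7 mean was 2.08 times that of PLT3. ORA47 followed at 0.34 ± 0.11 (limma adjusted p = 0.0126), AT1G33760 at 0.30 ± 0.10 (0.0152) and ERF4 at 0.27 ± 0.10 (0.0348), and in these 3, 2 and 3 of the 4 centred PLT7 values, respectively, lay above all PLT3 values. AT1G33760 lost its call without IM PLT3 replicate 1 (adjusted p = 0.0561 in limma). ORA47 lost it without SAM PLT3 replicate 1 (0.111) or SAM PLT7 replicate 1 (0.114). ERF4 (linked at 50 bp, adjusted p = 0.066 in limma) lost it also without either SAM PLT3 replicate, SAM PLT7 replicate 2, IM PLT3 replicate 2 or either IM PLT7 replicate (0.0561 to 0.129).

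Lower for PLT7 was ESE2, named as inducible by ethylene and salt, at −0.70 ± 0.10 (limma adjusted p = 5.5e-06). At this site, in the 5′ UTR, PLT7 gave 1.90 and 1.81 on SAM DNA and 1.89 and 1.91 on IM DNA, and PLT3 gave 2.1 and 1.64 on SAM DNA and 2.13 and 1.92 on IM DNA, so the proteins were level before centring. All these values are near the lowest that the lists hold for members, and sites without a listed peak in any 1 of the 8 libraries were not tested. AT1G75490 had −0.63 ± 0.10 (limma adjusted p = 1.78e-05), with PLT7 at 2.38 and 2.16 on SAM DNA and 3.47 and 2.68 on IM DNA beside PLT3 values of 2.87 and 2.57 on SAM DNA and 2.37 and 2.57 on IM DNA. AT5G43410 had −0.37 ± 0.10 (0.00409). At these 3 sites all 4 centred PLT7 values lay below all 4 PLT3 values, and with CRF9 they kept their call without each of the 8 libraries in turn.

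AT2G22200 was lower for PLT7 at −0.30 ± 0.10 (limma adjusted p = 0.017), with 4 of 4 centred PLT7 values below all centred PLT3 values, and lost the call without SAM PLT3 replicate 2 (0.0578) or IM PLT7 replicate 1 (0.094). It was the only unbound member with a peak in all 8 libraries, because a GFP peak of each tissue touched its region. DREB26, at −0.28 ± 0.11 (limma adjusted p = 0.0371), lost the call without SAM PLT3 replicate 1 (−0.16, 0.274), SAM PLT7 replicate 2, IM PLT3 replicate 1 or either IM PLT7 replicate (0.0592 to 0.12). At AT2G22200, AT5G43410 and DREB26 the uncentred values were higher for PLT7, so their negative sign is relative to the typical site only.

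**Figure D5:**
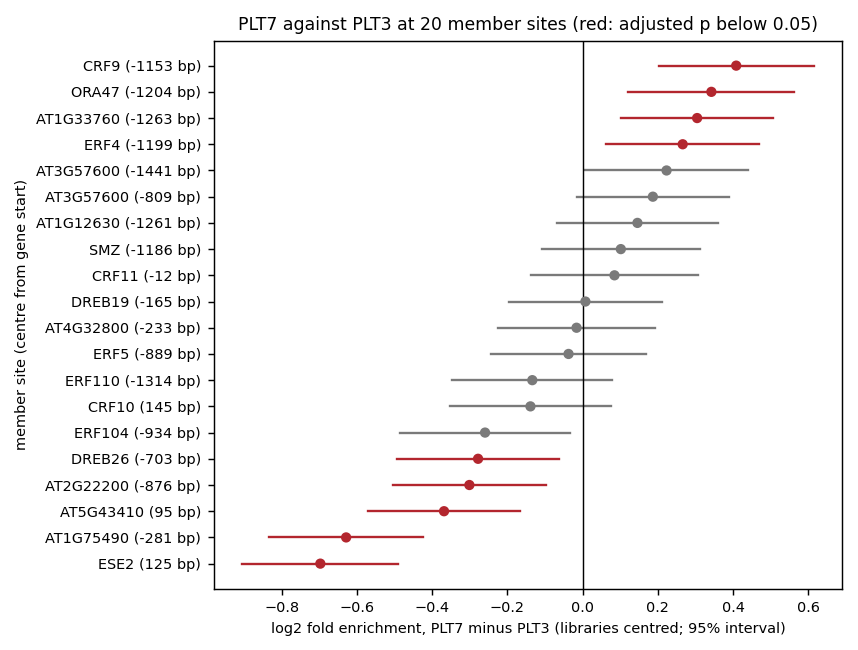
Log2 difference in fold enrichment, PLT7 minus PLT3, averaged over both tissues after each of the 8 libraries was centred on its median, at the 20 member sites with a peak in all 8 libraries (points, with 95% intervals of limma, labelled with the distance of the site from the gene start). Red sites passed an adjusted p of 0.05, with 4 above 0 led by CRF9 (0.41) and 5 below led by ESE2 (−0.70).

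Between the tissues no member site passed. In limma 0 of 20 had an adjusted p below 0.05 for IM against SAM and 3 had an unadjusted p below 0.05, while 1.3% of all sites passed, 0.413% higher and 0.888% lower on IM DNA, and 16.3% had an unadjusted p below 0.05. These 3 were AT3G57600 at −1441 bp (0.29 ± 0.11, log2 difference ± SE), AT1G33760 (0.27 ± 0.10) and ERF110 (−0.23 ± 0.11). The differences of the 20 sites ran from −0.23 to 0.29, and their 95% intervals stayed within −0.45 and 0.50. These tests do not show that the tissues were alike at the member sites. The change of the PLT7 against PLT3 difference between the tissues passed at 0 of the 12839 sites in limma. An unadjusted p below 0.05 was reached at 566 sites, 1 of them a member site, that of AT1G75490.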

How the data were processed

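Peak lists of 16 DAP-seq libraries were used, grouped by protein and tissue as titled. Per the labels and methods, the authors trimmed reads with fastp 0.23.2, mapped them to TAIR10 with BWA 0.7.17, filtered them with SAMtools 1.15 and called peaks per library with MACS3 at a q-value threshold, without a control library. The deposited lists precede the comparison of replicates. Fold enrichment was deposited as a linear ratio to the local background, p-values and q-values were deposited as −log10, and the deposited score restates the q-value and was not used. Read depth is not in the lists.

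IDR was re-implemented in Python 3.11.15 (numpy 2.4.6, pandas 2.3.3, scipy 1.17.1), with peaks ranked by fold enrichment and a threshold of 0.05. Merged peaks were removed if 1 bp overlapped a GFP peak of the tissue. Shared sites were tested with limma 3.58.1 in R 4.3.3 (group means, Benjamini-Hochberg over all sites). Both steps were tested on simulated data. For the IDR these were drawn from its own model as fitted to each dataset, and the share of reproducible peaks recovered was smaller for PLT5 than for PLT3 and PLT7. Under that model the low PLT5 counts may miss reproducible peaks, which was not tested on other data. Wilson intervals cover counting error only. The paper calls the 2 replicates of each tissue biological, but nothing states that they were separate plantings, so p-values measure the spread between these libraries. Same-numbered libraries of a tissue may share a pool of DNA, which the main fit left out and a replicate block took in. Figures used matplotlib 3.10.9.

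The members, lists and tests were chosen with earlier results of these data known. Members named were those bound in all 6 datasets (none), the 5 with the highest mean PLT7 enrichment, the most often bound of each subfamily, up to 5 sites per direction and limma comparison, up to 10 bound by PLT5, those with a peak in every GFP library and up to 10 listed subfamily members without a PLT peak. Others named with values were chosen after their values were seen.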

Additional observations from a re-analysis of the deposited data

How the results depend on the processing

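The counts of bound PLT3 and PLT7 members stayed within 1.5 times the reported value when peaks were ranked by p-value, when GFP-touching peaks were kept, when a q-value of 0.01 was asked for, when the summit had to lie in the window and when regions counted beyond its edge (added after seeing the data). PLT5 on IM DNA went to 1 member with ranking by p-value. Without an IDR threshold PLT5 bound 2 members on SAM DNA and 8 on IM DNA, and 1 member was bound in all 6 datasets. In a window of 1000 bp upstream to the start, PLT3 bound 13 and PLT7 bound 19 members on IM DNA, and 22 were bound in at least 1 dataset, with SNZ, ERF110 and ORA47 in 0. With a single replicate and no IDR, the counts were 28 to 40 (PLT3, SAM), 2 to 7 (PLT5, SAM), 28 to 35 (PLT7, SAM), 32 to 39 (PLT3, IM), 12 to 16 (PLT5, IM), 34 to 36 (PLT7, IM), 44 to 51 in at least 1 dataset, 1 to 4 in all 6 and 21 to 26 in all 4 PLT3 and PLT7 datasets.

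Without centring, 18 of 20 member sites and 11621 of all sites were called for PLT7 against PLT3, and the sign turned at DREB26 (0.37), AT1G75490 (0.02), AT2G22200 (0.35) and AT5G43410 (0.28), as the higher level of the PLT7 libraries then stays in the difference. Leaving out 1 library gave 6 to 9 member sites for PLT7 against PLT3 and, for IM against SAM over all sites, 2 to 278 instead of 167, with 0 member sites throughout. A group left with 1 library was taken to vary like the other groups. Same-numbered libraries of a tissue correlated weakly in their deviations (r = 0.0765 in the SAM and 0.0894 in the IM across 12839 sites), and across tissues r was 0.0392 for PLT3 and 0.151 for PLT7. With a replicate block, 10 member sites were called for PLT7 against PLT3 and 0 for IM against SAM, where the block gave 280 sites over the whole genome. Linking summits at 50 or 250 bp left the counts of member sites within 1.5 times. The stricter element stood at 2.38% of member sites, and 61.9% met at least 5 of the 6 fixed letters of the main one (added after seeing the data). With the nearest transcript model as the start, 22.6% of member summits lay downstream.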
